A study of Danio rerio with 20 samples.

Results

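The members described here are 87 of the 43603 probes with deposited values from a zebrafish expression array. They were chosen by their signal. It was higher in *rnaset2* mutants than in WT siblings in adult brain and differed little between the genotypes in embryos. A probe was taken where the mean log2 intensity of the mutant adult arrays exceeded that of the WT adult arrays by at least 2.5, every mutant adult array lay above every WT adult array, the mutant adult mean was at least 100, and the difference at 28 hpf and at 3 dpf was under 1 in size. The adult brain and embryo differences between genotypes therefore chose the members. They are given below as a description, and nothing is read from tests on them. No gene name or sequence was given for any probe in the files analysed here. The members are therefore called by rank, 1 to 87, in the size of the adult brain difference, and 2 of them also by probe ID.

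RNA was measured on 20 one-colour Agilent arrays. The mutants carried the chemically induced *rnaset2* allele AO127, and the controls were their WT siblings. Whole brains were dissected from fish of 1 year, with 3 mutant and 3 WT samples, and pooled whole embryos were collected at 28 hpf, with 4 mutant and 4 WT samples, and at 3 dpf, with 3 mutant and 3 WT samples. One label field gives the youngest stage as 28 dpf, and the 28 hpf of the other field and of the paper was used. It is not stated whether a brain sample held the tissue of 1 fish, how arrays were divided between slides, or whether the 28 hpf samples numbered 1 and 1.1 are separate pools, and the spread behind each p-value may therefore be technical. Adult and embryo samples differ in tissue as well as in age. The defining markers of brain could not be looked up without gene names.

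Ribonuclease T2 is an enzyme of the lysosome that breaks down RNA, including the RNA of ribosomes delivered there for recycling. People without the enzyme develop a leukoencephalopathy in infancy, and in zebrafish that lack it undigested material builds up in lysosomes. In the vertebrate brain, microglia take up and digest dying cells and depend on their lysosomes for this. A probe raised in a whole dissected brain can reflect more RNA per cell or more cells that carry that RNA, and the 2 cannot be told apart here.

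The values are fluorescence intensities, quantile normalized by the authors. They ran between 2.14 and 589725, with an array median of 258 on every array, so that a value near 2.14 is at the bottom of the scale. No background reading was used, and which dim probes were above background is not known. Precision is set by having 3 or 4 arrays a group. The adult arrays differed little in their mean Pearson's r with the embryo arrays over all probes. WT replicate 1 was slightly higher, at 0.793, against 0.777 to 0.786 for the other 5 adult brains. Without that array the same rule took 94 probes, of which 79 were among the 87. Leaving out WT replicate 2 or 3 also kept 79 of the 87. Leaving out mutant replicate 1, 2 or 3 kept 80, 75 and 78.

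In adult brain the members had a median mutant mean of 390 and a median WT mean of 43.6. The median of their log2 differences was 3.14, which is 8.81-fold, within a range of 2.503 to 8.34. Over all probes the median difference was -0.0063. The call of limma, at a Benjamini-Hochberg adjusted p under 0.05 over all probes, was reached by 83 members, all higher in mutants, and by 17.6% of all probes in that direction. Every mutant array lay above every WT array for 20.1% of all probes and, by the rule, for all members. Nothing is read from these counts, since the rule used the same contrast.

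Most members were dim in WT brain, while in mutant brain their levels were near those of other probes, with a median of 390 against 261 over all probes. The WT adult mean was under 50 for 48 members and under 100 for 63, which is 72.4% of the members and 35.6% of all probes. The mutant adult mean was at least 1000 for 22 members, or 25.3%, against 31.1% of all probes. The rule used these values, with a mutant mean of at least 100 and WT levels below it. These shares therefore follow in part from the choice, and nothing is read from them. The 4 brightest members in mutant brain were members 20, 37, 40 and 19.

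The brightest in mutant brain was member 20. Its intensities were 29343, 91609 and 51332 in mutant brains and 2763, 6597 and 2541 in WT brains, a 14.4-fold difference between geometric means. It was also measured in embryos, at 147 to 192 in mutants and 226 to 244 in WT siblings at 28 hpf, and at 1195 to 1319 in mutants and 719 to 779 in WT siblings at 3 dpf. All adult values of both genotypes lay above all embryo values, and the mutant brains lay above the WT brains. The next brightest were member 37, with a mean of 28577 in mutant and 2939 in WT brains, and member 40, with 14189 in mutant and 1544 in WT brains. Member 40 had little spread, at 14189, 13266 and 15113 in mutants and 1527, 1895 and 1211 in WT siblings.

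The probe A_15_P657581, which is member 13, had the largest difference on the scale of log2 of the intensity plus 50, where values near the bottom carry little weight. It had 4607, 11271 and 7248 in mutant brains, against 318, 849 and 160 in WT brains. The means were 7709 ± 3356 in mutants and 442 ± 361 in WT siblings (SD, n = 3 each). The lowest mutant brain was above the highest WT brain. The log2 difference was 4.36, and 4.14 on the scale with 50 added. In embryos the same probe was dim in both genotypes, at 6.37 to 13.5 in mutants and 5.18 to 14.0 in WT siblings at 28 hpf, and at 6.83 to 10.5 in mutants and 3.28 to 6.85 in WT siblings at 3 dpf.

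In some members the WT value lay at the bottom of the scale. Member 1 had 659, 860 and 816 in mutant brains and 2.36, 2.37 and 2.42 in WT brains. Its 8 arrays at 28 hpf and 6 arrays at 3 dpf lay between 2.26 and 2.58, so it was above that level in mutant adult brain and on no other array. The log2 difference of 8.34 became 3.97 with 50 added. Across the members, the median difference was 3.14 on the log2 scale and 2.19 with 50 added, and the rule applied on the second scale took 38 probes, of which 27 were among the 87.

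The log2 difference was at least 4 for 17 members and at least 3 for 49. Members 2, 3 and 4 followed member 1. Member 2 had 343, 299 and 532 in mutant brains and 10.4, 12.97 and 4.62 in WT brains. Member 3 had 531, 471 and 806 in mutant brains and 17.8, 9.44 and 14.8 in WT brains. Both were measured in the mutants at more than 20-fold the highest WT value, and in embryos at 2.29 to 14.8 for member 2 and 2.64 to 8.97 for member 3.

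The SD of log2 intensity was under 0.5 in both genotypes for 35 members, or 40.2%, against 82.9% of all probes. The members thus varied more between arrays of a genotype than most probes did. The rule used these same arrays, and a large difference of means can come from 1 extreme array. Nothing is therefore read from this difference in spread. Examples of the 35 follow. Member 42 had 1259, 1244 and 1343 in mutant brains, against 148, 165 and 112 in WT brains. Member 16 had 585, 630 and 729 in mutant brains and 43.4, 41.5 and 32.9 in WT brains. The 35 also held members with some of the smallest differences. Member 87, the last by rank, had 194, 178 and 206 in mutant brains and 35.1, 35.7 and 31.2 in WT brains. Member 75 had 283, 275 and 270 in mutant brains and 46.9, 41.4 and 46.8 in WT brains. In these 4 members the arrays of each genotype lay close together.

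The members did not all separate the genotypes by the same margin. The lowest mutant array was at least 4-fold above the highest WT array for 55 members and at least 2-fold above it for 76, against 0.346% and 1.73% of all probes, and the rule used these values. For the remaining 11, which were members 6, 12, 18, 36, 45, 50, 54, 56, 58, 59 and 64, it was under 2-fold. The median margin was 4.72-fold and the smallest 1.01-fold.

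In 6 members the highest mutant brain was at least 8-fold above the next, which held for 0.5% of all probes. These were members 14, 27, 50, 58, 59 and 64, picked out after their values were seen, on arrays that the rule used. In 5 of them mutant replicate 2 was the high array, and in member 50 it was replicate 1. Member 59 had 2.58, 734 and 2.52 in mutant brains and 2.43, 2.40 and 2.51 in WT brains. Member 58 had 4.44, 670 and 3.95 in mutant brains and 3.62, 2.80 and 3.48 in WT brains. Outside replicate 2, the mutant and WT values of both probes were nearly equal. Member 50 had 3797, 23.6 and 36.3 in mutant brains, against 20.4, 17.4 and 18.6 in WT brains. Members 50, 58, 59 and 64 are the 4 of the 87 that did not reach the limma threshold in the fit of all 20 arrays. With the highest mutant array left out their fold over WT was 1.56, 1.28, 1.04 and 1.15. Without mutant replicate 2 the rule took 89 probes, of which 75 were among the 87.

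In 9 members the spread lay on the WT side, again on arrays that the rule used. The highest WT brain was at least 4-fold above the next, which held for 1.26% of all probes. The high array was WT replicate 1 in 5 of the 9 members and replicates 2 and 3 in 2 each. Member 12 had 1112, 1626 and 1329 in mutant brains and 706, 5.40 and 70.6 in WT brains. Member 18 had 148, 225 and 207 in mutant brains and 130, 2.46 and 5.35 in WT brains. In both, WT replicate 1 came close to the mutants and the other WT brains were far below.

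In 3 members, 12, 44 and 67, the lowest WT brain was at least 4-fold below the next. Member 44 had 2142, 2803 and 2474 in mutant brains, against 875, 52.3 and 476 in WT brains. Member 67 had 1342, 1269 and 1590 in mutant brains and 63.9, 423 and 380 in WT brains. The low array was WT replicate 2 in members 12 and 44 and replicate 1 in member 67.

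Members 36 and 45 shared another pattern. Member 36 had 492, 491 and 450 in mutant brains, against 26.8, 12.7 and 348 in WT brains. Member 45 had 720, 715 and 688 in mutant brains and 29.4, 33.8 and 585 in WT brains. WT replicate 3 was near the mutant level in both, and the mutant brains varied little. Over the 20 arrays the log2 ratio of these 2 probes had an SD of 0.223 and their Pearson's r was 0.986. Whether they measure 1 gene is not known, and the arrays share the same normalization. The rule used the adult arrays in choosing both probes, so this likeness follows in part from the choice.

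Mutant replicate 2 was the highest mutant array for 41 of 87 members and for 34.03% of all probes. It was also the lowest mutant array for 30 members and for 38.15% of all probes. Mutant replicate 1 was the lowest for 40 members and for 31.24% of all probes. The median intensity over the members was 471 for mutant replicate 2, against 374 for mutant replicate 1 and 395 for replicate 3. The WT medians were 46.6, 38.9 and 36.2 for replicates 1, 2 and 3. Replicate 2 thus had the highest of the mutant medians, and replicate 1 the highest of the WT medians. The median SD of log2 intensity was 0.346 in mutant and 0.382 in WT brains for the members. It was 0.138 in mutant and 0.160 in WT brains for all probes, and the rule used these same arrays.

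In embryos the members were mostly dim. The geometric mean over the 14 embryo arrays was under 10 for 43 members, or 49.4%, against 10.7% of all probes. It was between 10 and 100 for 23 members and at least 100 for 21. The median over the members was 10.6, and over all probes it was 253. The rule set no lower limit on embryo intensity and favoured probes that were dim in WT brain. These low embryo levels can therefore follow in part from the choice, which was not tested, and nothing is read from them. A probe with almost no embryo signal can also meet the embryo limit for lack of signal. For such members a small embryo difference between the genotypes says little. The median adult levels of the 43 dimmest were 332 in mutant and 27.1 in WT brains, and those of the 21 brightest were 725 in mutant and 129 in WT brains.

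Members 25, 33, 47 and 51 had nearly flat embryo values at the bottom of the scale. Member 33 had 651, 556 and 783 in mutant brains and 78.2, 66.9 and 50.6 in WT brains, and between 2.18 and 3.11 on all embryo arrays. Member 47 had 629, 388 and 488 in mutant brains and 66.3, 37.4 and 80.1 in WT brains, and between 2.18 and 2.30 on all embryo arrays. These probes were above the bottom of the scale in the brains of both genotypes. The WT brains lay above every embryo array for 38 of the 87 members, or 43.7%, and for 33.1% of all probes.

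The members fell into 3 sets by where the embryo level lay between the adult levels. For 63 members the embryo geometric mean was at or below that of WT brain, for 17 it lay between the WT and the mutant brain, and for 7 it was above the mutant brain. These are 72.4%, 19.5% and 8.05% of the members, against 53.9%, 4.39% and 47.1% of all probes, whose shares overlap because the WT brain was the higher one for some of them. All 3 mutant brains lay above the 17 other arrays for 71 members, or 81.6%, and for 8.45% of all probes, and the rule had already placed them above the WT brains. All 3 WT brains lay below the 17 other arrays for 13 members, or 14.9%, and for 7.1% of all probes. In 5 of these 13 the mutant brains also lay below every embryo array. All 6 adult arrays thus lay below all 14 embryo arrays for 5.75% of the members, against 21.9% of all probes. The rule used the adult values, and nothing is read from these shares.

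Among the 17 in between, member 48 had 747, 845 and 582 in mutant brains and 72.9, 123 and 71.4 in WT brains. At 28 hpf it had 375 to 419 in mutants and 544 to 644 in WT siblings. At 3 dpf it had 293 to 320 in mutants and 196 to 228 in WT siblings. Member 46 had 299, 485 and 348 in mutant brains and 49.85, 46.1 and 36.2 in WT brains, with 251 to 330 at 28 hpf and 155 to 201 at 3 dpf. In both, WT adult brain was the lowest group and every embryo array lay above every WT brain.

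The 7 members brighter in embryos than in mutant brain were led by A_15_P106696, which is member 54 and had the highest embryo level of all members. Its embryo intensities were 123637 ± 5913 in mutants and 130157 ± 1691 in WT siblings at 28 hpf (SD, n = 4 each), and 336604 ± 26341 in mutants and 307518 ± 17044 in WT siblings at 3 dpf (SD, n = 3 each). In adult brain it had 4247, 1216 and 5906 in mutants, against 865, 289 and 324 in WT siblings. The mutant mean was 3790 ± 2378 and the WT mean 493 ± 323 (SD, n = 3 each). The lowest mutant brain, replicate 2, was only 1.41-fold above the highest WT brain, replicate 1. The log2 difference of 2.85 was 2.39 without mutant replicate 3 and 3.53 without replicate 2.

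Member 56 followed member 54 closely. It had 2432, 616 and 3289 in mutant brains and 479, 158 and 183 in WT brains, and its embryo geometric mean was 152400. Pearson's r between members 54 and 56 was 0.998 over the 20 arrays and 0.999 over the 6 adult arrays, which share their normalization. The rule placed every mutant brain above every WT brain in both probes, so these values follow in part from the choice. The large gap between embryo and brain levels in both also weighs on r over the 20 arrays. In both probes the embryo level exceeded the mutant brain level, by 60.4-fold for member 54 and 89.5-fold for member 56.

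Member 14 was the third with a far higher embryo level, at a geometric mean of 11858. It had 27.9, 646 and 6.57 in mutant brains and 2.62, 2.49 and 2.66 in WT brains, and with mutant replicate 2 left out its fold over WT was 5.23, against 18.97 with it. The other 4 were members 52, 71, 76 and 78. Member 52 had 567, 376 and 576 in mutant brains and 65.4, 73.7 and 66.3 in WT brains, against an embryo geometric mean of 869. Member 78 had 1325, 755 and 1470 in mutant brains and 162, 203 and 211 in WT brains, against 2025 in embryos. Member 71 had 132, 114 and 124 in mutant brains and 10.6, 26.3 and 26.4 in WT brains, against 389 in embryos. Their embryo levels, as geometric means over both stages, exceeded those of mutant brain by 1.75-fold for member 52, 1.78-fold for member 78 and 3.16-fold for member 71. Member 78 had 3157 to 3545 at 28 hpf, but 872 to 1312 at 3 dpf, within the range of its mutant brains. Member 52 had 502 to 730 at 28 hpf, which overlapped its mutant brains.

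Between the genotypes in embryos, the differences of the members were held under 1 by the rule. Their median was -0.013 at 28 hpf and 0.072 at 3 dpf. At 28 hpf limma called 4 members higher and 6 lower in mutants, where 34.5% of all probes were called. At 3 dpf it called 10 higher and 4 lower, where 53.9% of all probes were called. The rule removed larger differences, which can lower these counts. Its embryo limit was met by 82.6% of all probes, and the share called among those was not counted. The fit also takes in the spread of the adult arrays. What made the counts low was not tested. Members 28 and 57 were called higher at both embryo stages, and member 52 was called lower at both. Members 48 and 69 were called lower in mutants at 28 hpf and higher at 3 dpf. Nothing is read from these embryo calls, since the rule used the same differences.

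The change of the members from 28 hpf to 3 dpf was not used by the rule. It was tested in limma as the mean of mutants and WT siblings at 3 dpf minus that at 28 hpf, over all 43603 probes. Of the 87 members, 14 were higher and 22 lower at 3 dpf at an adjusted p under 0.05, and 51 did not reach the threshold. Of all probes, 30.5% were higher and 43.2% were lower. Both shares of the members lay below those of all probes, a difference that was not tested, and their median log2 difference was -0.13, as over all probes (-0.13). With 50 added to the intensities, 14 members were higher and 14 lower, against 30.3% and 42.4% of all probes. Of these, 12 of the rises and 14 of the falls were called on both scales. Calls on both scales were not counted over all probes, and nothing is read from them. The spread in this fit also includes the adult arrays. With the embryo arrays fitted alone, 17 members were higher and 25 lower, against 13915 higher and 19650 lower of all 43603 probes.

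Calls were counted by brightness in embryos. Over all probes 30.5% were higher and 43.2% lower, and these shares were not counted within brightness classes. Nothing about the members is therefore read from the contrast between classes. Of the 21 members with an embryo level of at least 100, 9 were higher and 7 lower at 3 dpf. Of the 23 with a level between 10 and 100, 2 were higher and 8 lower, and of the 43 with a level under 10, 3 were higher and 7 lower. With 50 added, the class under 10 held 1 rise and 1 fall, so its other calls were lost where values near the bottom carry little weight.

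Among the rises, member 20 had a log2 difference of 2.27 (standard error 0.22, adjusted p = 8.9e-08 from limma), so the brightest member of mutant adult brain also rose between the embryo stages. Member 54 rose by 1.34 (standard error 0.29, adjusted p = 0.00050 from limma) and member 56 by 1.997 (standard error 0.30, adjusted p = 1.5e-05 from limma). The standard errors given here and below take in the adult arrays. For member 54 the SD of log2 intensity was 1.20 in mutant and 0.87 in WT brains, and at most 0.114 in the embryo groups. For member 56 it was 1.29 and 0.87 in brains, and at most 0.147 in the embryo groups. In these 2 members the standard error thus describes mainly the adult spread. Member 40 had 46.3 to 70.9 in mutants and 42.3 to 46.2 in WT siblings at 3 dpf, against 13.1 to 19.3 in mutants and 4.07 to 16.9 in WT siblings at 28 hpf, and rose by 2.09 (standard error 0.25, adjusted p = 7.9e-07 from limma).

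The falls included members 31, 34 and 80. Member 80 fell by 2.43 on the log2 scale (standard error 0.11, adjusted p = 5.1e-12 from limma), with 71.6 to 72.1 in mutants and 34.7 to 55.7 in WT siblings at 3 dpf, against 280 to 331 in mutants and 250 to 344 in WT siblings at 28 hpf. Member 31 fell by 1.85 on the log2 scale (standard error 0.14, adjusted p = 3.8e-09 from limma). Member 34 fell by 2.04 on the log2 scale (standard error 0.16, adjusted p = 4.5e-09 from limma). They were the pair of members most alike, with an SD of 0.169 in their log2 ratio over the 20 arrays. In adult brain member 31 had 1432, 2209 and 1464 in mutants and 243, 121 and 146 in WT siblings, and member 34 had 909, 1432 and 1012 in mutants and 170, 91.1 and 82.2 in WT siblings. Their order of WT replicates 2 and 3 differed, with 121 and 146 for member 31 against 91.1 and 82.2 for member 34. The rule placed every mutant brain above every WT brain in both probes, so their likeness follows in part from the choice. Whether both measure the same gene is not known.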

How the data were processed

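The authors deposited fluorescence intensity values of 43603 probes on 20 one-colour Agilent arrays, quantile normalized across arrays on a linear scale. The submitters' processing notes name danRer11, which the paper used to re-annotate probes. No source names the scanner software or the background correction. The gene tables used here matched 0 probe IDs. Intensities were log2-transformed and modelled by limma 3.58.1 under R 4.3.3, in a fit of all 20 arrays that gave each of the 6 groups its own mean (14 residual and 1.79 prior degrees of freedom, two-sided), with Benjamini-Hochberg adjustment over all probes and a threshold of 0.05. Counts and ranges were made in Python 3.11.15 with pandas 2.3.3. The fit was tested on simulated data. The members and the classes described were chosen with earlier results of these data known. The named probes are the member with the largest adult difference on log2 of the intensity plus 50 and the member brightest in embryos, and other members are given by rank. Alternatives changed the scale, the thresholds, the arrays, the variance model, the normalization, a filter on dim probes and a replicate block.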

Additional observations from a re-analysis of the deposited data

How the results depend on the processing

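The number of members was 87 in the main setting and 81 to 94 with each of the 20 arrays left out in turn. It was 38 on log2 of the intensity plus 50, 135 and 49 with an adult difference of at least 2 and at least 3, and 41 with embryo differences under 0.5. A mutant mean of at least 50 or 200 gave 104 and 67. In adult brain, 15469 probes were called, 7688 of them higher in mutants. These were 7014 and 3702 with the adult arrays fitted alone, and 13662 to 15063 and 6899 to 7456 with each adult array left out. Of the members 83 were called, 69 with the adult arrays fitted alone, and 83 to 87 with an adult array left out. Without the dimmest 25% of probes 31 were called, and that filter kept only 31 members. Between 3 dpf and 28 hpf, leaving out each embryo array gave 14 to 15 members higher and 18 to 22 lower, and 12963 to 13145 and 18242 to 18689 of all probes. The 22 members lower became 14 on log2 of the intensity plus 50, where 18507 of all probes were lower. They became 11 of 31 without the dimmest 25% of probes, where 15274 of 32702 probes were lower. With a replicate block, 13973 probes and 83 members were called in adult brain. At 3 dpf 13 members were then higher and 19 lower, against 12777 and 17905 of all probes. Mutant and WT arrays of the same number deviated from their group means with r between -0.058 and 0.023. The best match of a mutant array was its own number in 1 of 10 cases. These values gave no sign that the numbers pair the samples, but they cannot exclude it. The adult difference of A_15_P657581 ran between 3.80 and 5.00 and that of A_15_P106696 between 2.39 and 3.53 with an adult array left out. Median scaling leaves quantile normalized values almost as they are.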

Other observations

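Of the 162 probes that met the adult brain conditions of the rule, 87 (53.7%) also had embryo differences under 1 at both stages, a limit that 82.6% of all probes met. Of the other 75, 62 were higher in mutants by at least 1 at 28 hpf, at 3 dpf or at both and lower at neither, and 13 were lower at one or both and higher at neither. The nearest probe below the adult limit of 2.5 had a difference of 2.48, and the member nearest to it had 2.503. The nearest values on the 2 sides of the intensity limit were 102 for a member and 97.2 for a probe left out. Dixon's criterion was applied to the 28 hpf intensities without a log2 transformation. By it a single array lay apart from the other 3 of its group in 11 members in mutants and in 11 in WT siblings (12.6% each). Over all probes the shares were 7.34% in mutants and 7.78% in WT siblings. Chance gives about 1 in 20 for normally distributed values, and the distribution of these intensities was not checked.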
